A study of Mus with 8 samples.

Results

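The NRF2 antioxidant genes are a set of 10 genes chosen by name: Nqo1, Hmox1, Gclc, Gclm, Txnrd1, Srxn1, Slc7a11, Gsta4, Gsr and Nfe2l2. 9 of the 10 had a probe named in the platform annotation used here, and Gsr was not analysed here. The 9 genes had 17 of the 46237 probes on the array. 13 of these 17 probes, and all 9 measured genes through their brightest probe, passed the filter on dim probes, for which 4 or more of the 8 arrays had to detect the probe (detection p-value under 0.05). 11859 genes in all were tested.

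The cells were vascular smooth muscle cells cultured from the aorta in DMEM with serum and taken at passage 1, and the mice were C57 black 6 males of 8 weeks. In 4 cultures, called KO, the mice carried floxed Tie2 together with the SM22α Cre transgene. In the other 4, called WT, they carried floxed Tie2 and no Cre transgene, so the floxed allele is shared by both groups. The transgene drives Cre from the SM22α promoter, which is active in smooth muscle, and the groups differ in the presence of Cre as well as in the intended loss of Tie2. There was 1 Illumina bead array per culture. Slide 1 held KO replicates 1 and 2 and WT replicates 1 to 4, and slide 2 held KO replicates 3 and 4. The array names in the labels carry 3 joined numbers for KO replicates 2 to 4 and WT replicate 4 and 2 joined numbers for the other cultures. The labels do not say what these numbers stand for, or whether each culture came from its own mice, so the p-values here rest on the spread between these cultures, which may be partly technical.

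NRF2, encoded by Nfe2l2, is a transcription factor that the adaptor protein KEAP1 marks for destruction in unstressed cells. Oxidants and electrophiles modify KEAP1, NRF2 then accumulates, pairs with small MAF proteins and binds antioxidant response elements, and the repressor BACH1 competes for these sites. Its targets make and recycle glutathione and thioredoxin, reduce quinones and break down heme. In arterial smooth muscle this programme is best known as a defence against oxidative injury, with heme oxygenase 1 as its most studied product.

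Median scanner intensities per array were 94.7 to 128.1, between 44.9% and 49.5% of probes were detected, and the number of arrays limits the precision. Tek, which encodes Tie2, had log2 intensities of 4.78, 5.56, 5.36 and 5.26 in KO replicates 1 to 4, against 6.44, 7.42, 6.66 and 6.35 in WT replicates 1 to 4, so its groups did not overlap. Its log2 fold change was -1.48 with a standard error (SE) of 0.27 and a limma adjusted p of 0.81, and in the authors' normalized intensities it was -0.61. Of the smooth muscle markers, 10 of 10 passed the filter. Their log2 fold changes had a positive sign for 10 of 10, with a median of 0.56, and 2 had an unadjusted p under 0.05. Standardized over the 8 cultures, their mean level was 0.23, 0.40, 0.55 and 0.45 in KO replicates 1 to 4. In WT replicates 1 to 4 it was -0.10, -1.60, -0.63 and 0.69, so both the lowest and the highest culture were WT. 14 of 15 macrophage and leukocyte markers also passed, and their summed linear intensity lay between 4182 and 32679 in KO cultures and between 5903 and 60104 in WT cultures. Their log2 fold changes had a negative sign for 14 of 14, with a median of -0.96, and 0 had an unadjusted p under 0.05. Within slide 1 those of C1qa, Adgre1 and Cd52 were -0.23, 0.12 and 0.17, against -1.79, -1.43 and -1.57 over all cultures. The part of these marker differences in the results for the NRF2 antioxidant genes was not tested. In such bulk samples fewer cells of a type and less RNA per cell cannot be told apart. Across the 11859 genes, limma called 0 (0.0%) at an adjusted p of 0.05. At an unadjusted p under 0.05 there were 681 (5.74%), of which those higher in KO made up 2.61% and those lower in KO 3.13% of all genes, and the groups did not overlap for 389 (3.28%).

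None of the 9 NRF2 antioxidant genes passed in limma, and 0 of 9 had an unadjusted p under 0.05. The groups overlapped for each of the 9. The means of 1, Nqo1, differed by at least 2-fold, as did those of 1.73% of all genes. 4 of the 9 were higher and 5 lower in KO by sign. Their median log2 fold change, KO minus WT, was -0.07, against -0.0024 over all genes tested. Levels here are log2 intensities after background correction and quantile normalization. A probe's brightness depends on its sequence, so levels are compared between cultures and never between genes.

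The widest difference of means was that of Nqo1, NAD(P)H quinone dehydrogenase 1, which reduces quinones by a route that avoids radicals. Its log2 intensity was 11.32, 8.16, 9.45 and 8.996 in KO replicates 1 to 4, against 10.71, 6.33, 7.78 and 8.19 in WT replicates 1 to 4. Replicate 1 was the brightest culture of its own group in both genotypes, WT replicate 2 was the dimmest of all, and the groups overlapped. The means were 9.48 ± 1.34 in KO and 8.25 ± 1.82 in WT (SD, n = 4 each). The log2 fold change was 1.23 (SE 0.95), with a limma adjusted p of 0.84 and an exact two-sided permutation p of 0.34. The smallest p that the 70 assignments of 4 against 4 allow is 0.0286. The 95% confidence interval ran from -0.92 to 3.38, which spans a 10.4-fold higher mean in KO as well as a lower one.

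Nqo1 was one of the most variable genes of the whole array. Its highest and lowest cultures differed by 4.99 log2 units, or 31.7-fold, and only 56 of 11859 genes had a wider range. In the authors' normalized intensities the range was 3.93 log2 units. The beads of 1 array gave its scanner intensity with a standard error of 0.049 to 0.087 log2 units, from 33 to 45 beads, far below the differences between cultures. A second, dimmer Nqo1 probe was detected on 2 of 4 KO and 1 of 4 WT arrays. It stood at 7.31, 6.04, 4.69 and 4.26 in KO replicates 1 to 4, against 6.57, 4.16, 4.39 and 4.37 in WT replicates 1 to 4, so it too was brightest in replicate 1 of each group. The Nqo1 log2 fold change was 2.05 without WT replicate 1, 0.62 without KO replicate 1 and 0.59 without WT replicate 2.

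Hmox1 encodes heme oxygenase 1, which opens the heme ring to give biliverdin, iron and carbon monoxide. Its log2 intensity was 10.99, 9.74, 9.78 and 10.22 in KO replicates 1 to 4, against 11.17, 10.53, 9.96 and 9.92 in WT replicates 1 to 4. Replicate 1 was again the brightest of each group. The means were 10.18 ± 0.58 in KO and 10.39 ± 0.59 in WT (SD, n = 4 each), with a log2 fold change of -0.21 (SE 0.36) and a limma adjusted p of 0.92. The 95% confidence interval of -1.04 to 0.61 spans KO means from 0.488 to 1.53 times that of WT. Macrophages are a known source of Hmox1. The summed macrophage and leukocyte markers were highest in WT replicate 2, WT replicate 1 and KO replicate 1, at 60104, 43606 and 32679. These were also the brightest cultures for Hmox1, at 10.53, 11.17 and 10.99. KO replicate 2 was next in the markers, at 24739, but lowest in Hmox1, at 9.74. The part of macrophages in the Hmox1 level was not tested.

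**Figure D1:**
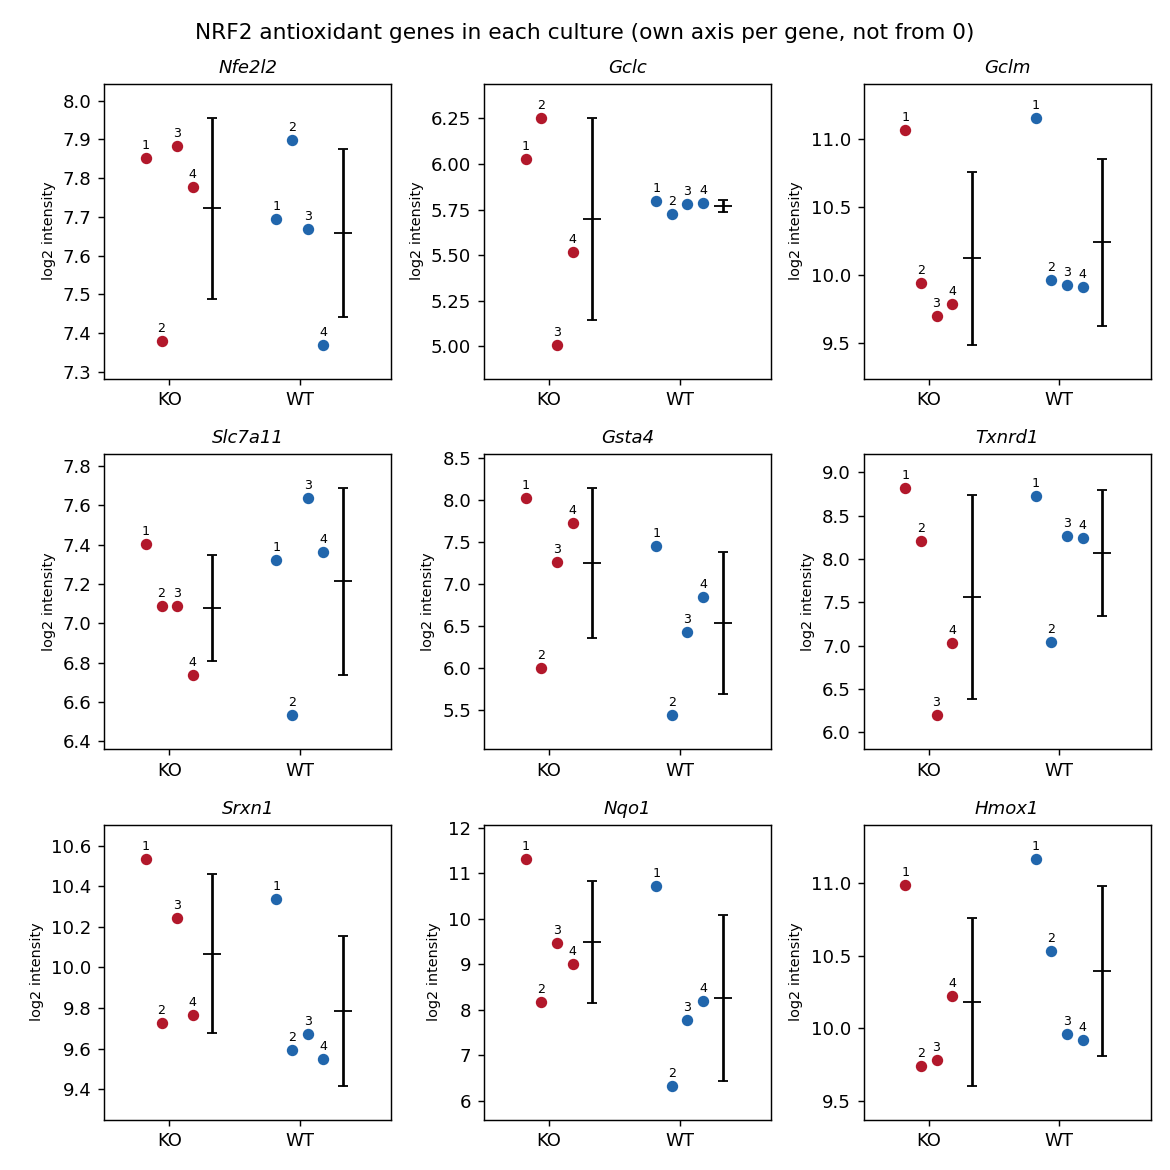
Log2 intensity of the 9 measured NRF2 antioxidant genes in each culture, KO left of WT, with replicate numbers above the points and the mean ± SD (n = 4) as a black bar beside each group. Each panel has its own axis, not from 0. The groups overlap in every panel, and replicate 1 is the highest point of both groups for Gclm, Gsta4, Txnrd1, Srxn1, Nqo1 and Hmox1.

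None of the 3 genes of glutathione synthesis passed, and the sign of each turned with slide as a block. Slide 2 held only KO replicates 3 and 4, so the slide and these cultures cannot be told apart. Gclc and Gclm encode the catalytic and the modifier subunit of glutamate cysteine ligase, the rate-limiting enzyme of glutathione synthesis, and Slc7a11 encodes the cystine transporter xCT that feeds it. Gclc stood at 6.03, 6.25, 5.01 and 5.51 in KO replicates 1 to 4, against 5.80, 5.72, 5.78 and 5.79 in WT replicates 1 to 4. The 4 WT cultures lay within a narrow band, with an SD of 0.033 against 0.55 in KO, and KO cultures lay on both sides of it, those on slide 1 above and those on slide 2 below. The beads of 1 array gave the Gclc scanner intensity with a standard error of 0.058 to 0.109 log2 units. That exceeds the WT SD, so these arrays cannot show that the WT cultures agree so closely. Background correction widens the log2 differences of a dim probe, so on the corrected scale the bead error is larger, in KO as in WT. The Gclc range over the cultures was 1.24 log2 units here and 0.46 in the authors' normalized intensities. How much of the KO spread is bead error was not tested. The Gclc log2 fold change was -0.07 (SE 0.26), with a limma adjusted p of 0.96. With slide as a block, or within slide 1, it was 0.37, and those of Gclm and Slc7a11 were 0.26 and 0.032. For Gclc the unadjusted limma p was then 0.089 with the block and 0.060 within slide 1, and the adjusted p was 0.97 and 0.99.

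Gclm, the modifier subunit, had a different pattern. It stood at 11.06, 9.94, 9.70 and 9.79 in KO replicates 1 to 4, against 11.16, 9.97, 9.93 and 9.91 in WT replicates 1 to 4. 3 cultures of each group lay close together and replicate 1 stood above them by 1.12 log2 units in KO and by 1.19 in WT. Without replicate 1 the SD was 0.12 in KO and 0.029 in WT, against 0.63 and 0.61 with it. The bead standard error of 1 array was 0.044 to 0.086 log2 units for Gclm, above that WT SD of 0.029. The log2 fold change was -0.12 (SE 0.38), with a limma adjusted p of 0.96.

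Slc7a11 stood at 7.40, 7.09, 7.09 and 6.74 in KO replicates 1 to 4, against 7.32, 6.53, 7.64 and 7.36 in WT replicates 1 to 4. WT replicate 2 was the lowest culture and WT replicate 3 the highest. The log2 fold change was -0.13 (SE 0.26), with a limma adjusted p of 0.93. A second Slc7a11 probe detected on all 8 arrays gave -0.11. Another, detected on 1 of 4 KO and 3 of 4 WT arrays, gave -0.39. The remaining probes of the gene, which did not pass the filter, were detected on 2 of 8 and 0 of 8 arrays and gave 0.40 and 0.11.

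Gsta4 encodes a glutathione transferase that conjugates 4-hydroxynonenal, a product of lipid peroxidation. It stood at 8.02, 6.00, 7.26 and 7.72 in KO replicates 1 to 4, against 7.45, 5.44, 6.44 and 6.84 in WT replicates 1 to 4. Replicate 1 was the brightest and replicate 2 the dimmest of each group. The means were 7.25 ± 0.89 in KO and 6.54 ± 0.84 in WT (SD, n = 4 each), a log2 fold change of 0.71 (SE 0.52), with a limma adjusted p of 0.83 and an exact permutation p of 0.31. The 95% confidence interval ran from -0.48 to 1.90.

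The 2 genes of the thioredoxin arm differed in sign, and neither passed. Txnrd1 encodes the selenoprotein thioredoxin reductase 1, which keeps thioredoxin reduced with NADPH. It stood at 8.82, 8.20, 6.20 and 7.03 in KO replicates 1 to 4, against 8.73, 7.04, 8.26 and 8.24 in WT replicates 1 to 4. The 2 lowest cultures were KO replicates 3 and 4, the 2 arrays of slide 2, with WT replicate 2 next. The log2 fold change was -0.51 (SE 0.58), with a limma adjusted p of 0.87. With slide as a block it was 0.44, the same estimate as within slide 1, and without KO replicate 3 it was -0.05. Txn1, the thioredoxin that this enzyme reduces, was also lowest in KO replicates 3 and 4, at 11.85, 11.41, 9.93 and 9.998 in KO replicates 1 to 4, against 12.03, 11.36, 11.55 and 11.86 in WT replicates 1 to 4. Slide 2 held only these cultures, so the slide and the cultures cannot be told apart.

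Srxn1 encodes sulfiredoxin, which repairs overoxidized peroxiredoxins. Its brightest probe stood at 10.54, 9.73, 10.24 and 9.77 in KO replicates 1 to 4, against 10.34, 9.59, 9.67 and 9.55 in WT replicates 1 to 4. KO replicates 1 and 3 and WT replicate 1 were high, and the other 5 cultures lay within 9.55 to 9.77. The log2 fold change was 0.28 (SE 0.25), with a limma adjusted p of 0.84 and an exact permutation p of 0.23. The other Srxn1 probes, both detected on all 8 arrays, gave 0.28 and 0.05. Replicate 1 was the brightest culture of each group on all 3 probes.

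Nfe2l2 itself had the smallest range of the 9 genes, at 0.53 log2 units, except that Gclc had a smaller one in the authors' normalized intensities (0.46 against 0.50) and with control-like probes as background (0.054 against 0.097). It stood at 7.85, 7.38, 7.88 and 7.78 in KO replicates 1 to 4, against 7.70, 7.90, 7.67 and 7.37 in WT replicates 1 to 4. The means were 7.72 ± 0.23 in KO and 7.66 ± 0.22 in WT (SD, n = 4 each), a log2 fold change of 0.06 (SE 0.18) and a limma adjusted p of 0.96. The 95% confidence interval of -0.34 to 0.47 was the narrowest of the set. Replicate 1 was not the brightest culture in either group, unlike for Nqo1, Gclm and Hmox1. NRF2 is controlled mainly through the stability of the protein, which these arrays do not measure. A second Nfe2l2 probe was detected on 0 of 4 KO arrays and 1 of 4 WT arrays and gave -0.17.

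**Figure D2:**
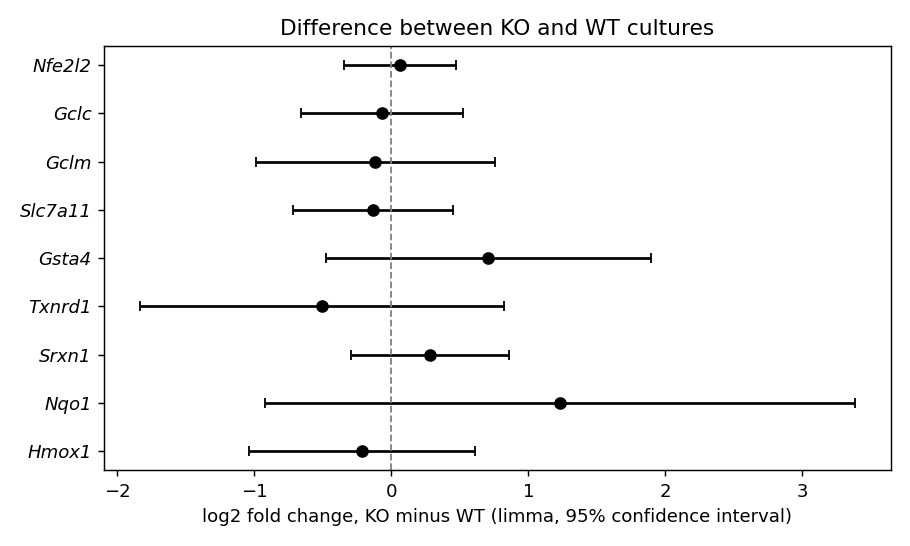
Log2 fold change (KO minus WT) of the 9 measured genes on the x axis, with the 95% confidence interval from limma as a bar and 0 as a dashed line. Every interval includes 0, and the intervals of Nqo1 (-0.92 to 3.38) and Txnrd1 (-1.83 to 0.82) are the widest.

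The spread between cultures was larger for some of these genes than for most genes on the array. The pooled within-group SD was 1.60 log2 units for Nqo1, 0.97 for Txnrd1 and 0.87 for Gsta4, at the 99.4th, 96.2th and 94.4th percentile of all genes tested. It was 0.62 for Gclm and 0.58 for Hmox1, at the 84.8th and 81.7th percentile. Gclc, Slc7a11 and Srxn1 lay between the 54.8th and the 57.1th percentile, and Nfe2l2 at the 24.2th. The range over the cultures exceeded 2 log2 units for 3 of the 9 genes, against 12.0% of all genes. In the authors' normalized intensities only Nqo1 exceeded it, with ranges of 1.68 for Txnrd1 and 1.37 for Gsta4, and Nqo1 was also alone without background correction, with normexp and with control-like probes as background. With control-like probes the range of Gsta4 was 0.28, at the 53.3th percentile, and that of Txnrd1 was 0.52, at the 70.2th. The median within-group SD was 0.58 over the 9 genes and 0.35 over all genes.

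**Figure D3:**
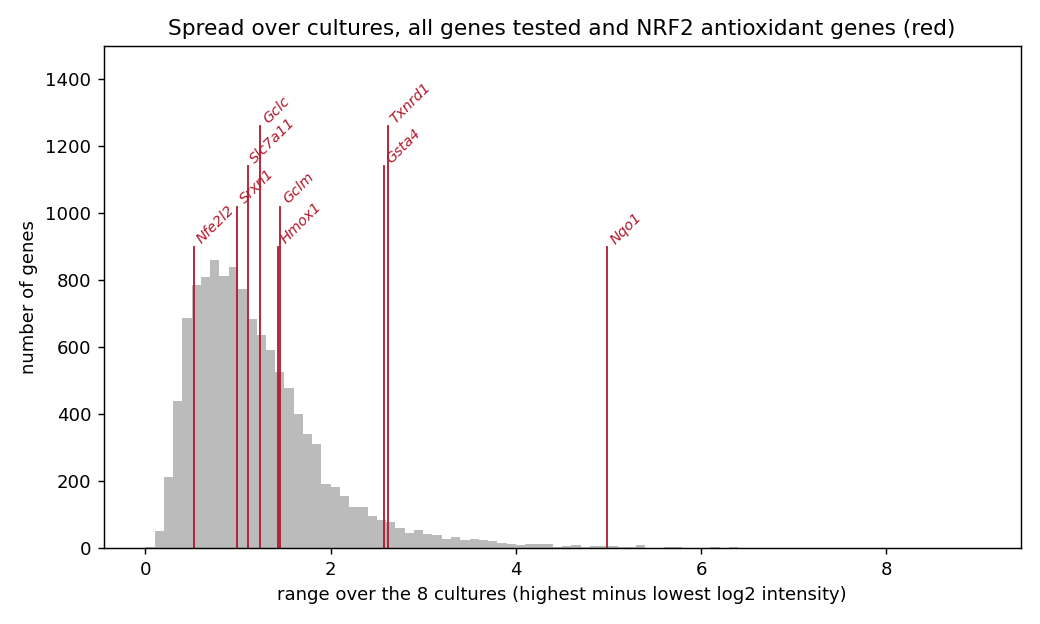
Number of genes (y axis) by range over the 8 cultures, the highest minus the lowest log2 intensity (x axis), for the 11859 genes tested in grey, with the NRF2 antioxidant genes as red lines. Nqo1 lies in the far tail at 4.99, Txnrd1 and Gsta4 at 2.62 and 2.58, and Nfe2l2 at 0.53, left of the median of 1.05.

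The cultures that were high were largely the same from gene to gene. KO replicate 1 was the highest or second highest of the 8 cultures for 8 of the 9 genes and WT replicate 1 for 5. For 5 genes, Nqo1, Hmox1, Gclm, Txnrd1 and Srxn1, these were the 2 highest cultures, an order that 5.26% of all genes tested had. In the authors' normalized intensities 4 of the 9 genes had it. Standardized over the 8 cultures, the mean of the 9 genes was 1.17, -0.36, -0.35 and -0.26 in KO replicates 1 to 4, against 0.86, -0.62, -0.12 and -0.33 in WT replicates 1 to 4. These cultures were picked out after their values were seen, so the order is a description with no test.

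Of the cell type markers tested, 1 of 9 fibroblast markers and none of the 14 macrophage, 10 contractile and 7 endothelial markers had these 2 cultures as their highest. Among all genes tested 5.26% had this order, so counts this low in short lists do not set the markers apart. The fibroblast marker was Dpt, which encodes the matrix protein dermatopontin and stood at 10.36, 4.57, 7.25 and 6.72 in KO replicates 1 to 4, against 9.37, 5.92, 7.53 and 6.84 in WT replicates 1 to 4. The part of other cell types in the pattern was not tested. Both lay on slide 1, with KO replicate 2 and the other WT cultures. The summed linear intensity of the macrophage and leukocyte markers was 32679, 24739, 4182 and 8520 in KO replicates 1 to 4, against 43606, 60104, 5903 and 12530 in WT replicates 1 to 4. KO replicate 1 was the highest of the KO cultures and WT replicate 1 was second among the WT cultures. WT replicate 2 was the highest in macrophage markers and the lowest in Nqo1. The contractile smooth muscle list had a mean standardized level of 0.23 in KO replicate 1 and -0.10 in WT replicate 1, within the range of -1.60 to 0.69 of all cultures. The summed levels of the fibroblast markers lay between 11542 and 21683 in KO and between 13180 and 36509 in WT, and those of the endothelial markers between 3240 and 4015 in KO and between 2125 and 3408 in WT. The endothelial markers Kdr, Tie1 and Vwf did not pass the filter.

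**Figure D4:**
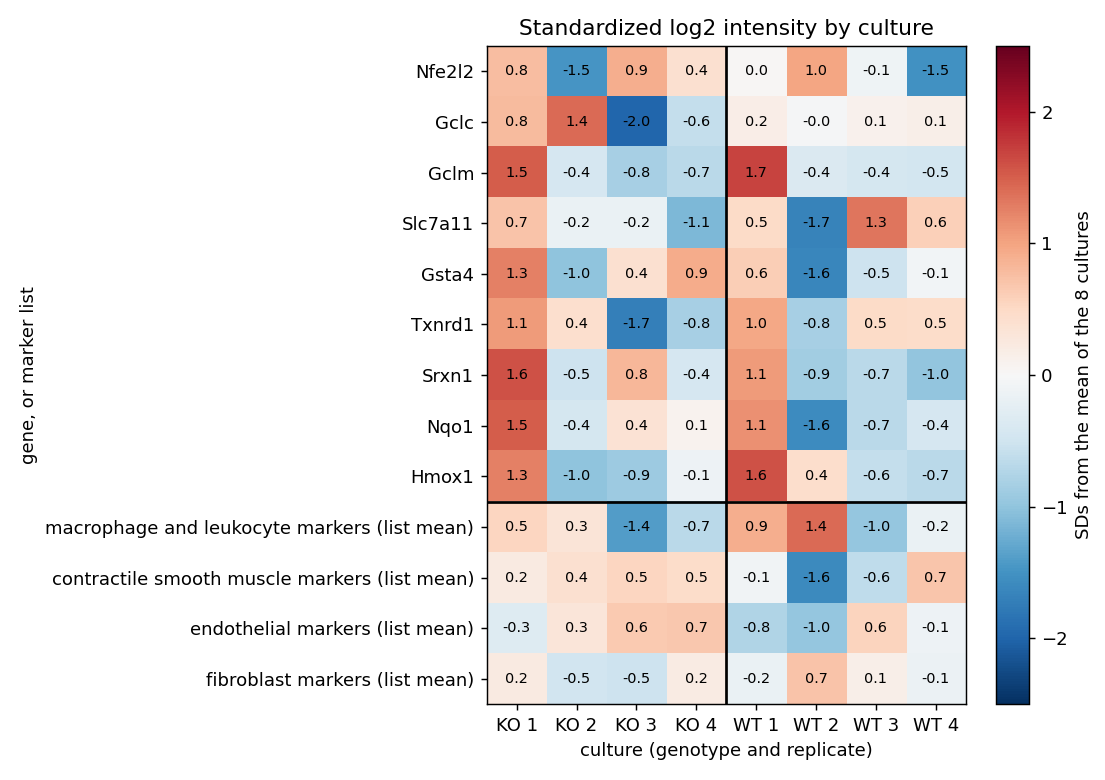
Standardized log2 intensity (SDs from the mean of the 8 cultures, colour and number) of the 9 genes, and below the line the mean over 4 lists of cell type markers, in KO replicates 1 to 4 left of WT replicates 1 to 4. Columns KO 1 and WT 1 are red for most NRF2 antioxidant genes, while the macrophage and leukocyte row is highest in WT 2.

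The 5 genes whose level over the 8 cultures was most like the mean of the 9 standardized genes were Dst, Cat, Marco, Gm5052 and Hspg2, with Pearson correlations of 0.99, 0.98, 0.97, 0.96 and 0.96. Dst encodes the cytoskeletal linker dystonin, Cat the peroxide-degrading enzyme catalase, Marco a scavenger receptor of macrophages and Hspg2 the basement membrane proteoglycan perlecan. Gm5052 is a predicted locus, and Marco was detected on only 2 of 4 KO and 2 of 4 WT arrays. KO replicate 1 and WT replicate 1 were the brightest cultures for each of the 5. They were also the highest in the mean by which these genes were picked, so this follows from the selection. Without these 2 cultures the correlations over the other 6 were 0.89, 0.65, 0.70, 0.49 and 0.73. Cat stood at 9.99, 9.25, 9.29 and 9.45 in KO replicates 1 to 4, against 9.84, 9.21, 9.36 and 9.43 in WT replicates 1 to 4. Its 8 cultures spanned only 0.78 log2 units. A dimmer Cat probe, also detected on all 8 arrays, did not have this order, at 5.51, 5.78, 4.72 and 5.91 in KO replicates 1 to 4, against 5.88, 5.20, 5.09 and 4.71 in WT replicates 1 to 4.

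Of 102 further pathway genes tested from 9 lists, 0 passed in limma, 1 had an unadjusted p under 0.05, lower in KO, and 1 did not overlap between the groups, against 5.74% and 3.28% of all genes. Their median log2 fold change was -0.07, and for single genes of these lists a difference is the log2 fold change, KO minus WT. Among 13 regulators of NRF2, 0 passed and 0 had an unadjusted p under 0.05, with a median of -0.10. Keap1, the adaptor that holds NRF2 down, stood at 9.46, 9.84, 9.32 and 9.54 in KO replicates 1 to 4, against 9.42, 10.02, 9.70 and 9.58 in WT replicates 1 to 4, a log2 fold change of -0.14 (SE 0.18). Bach1, the competing repressor, was lowest in replicate 1 of each group. It stood at 6.46, 7.68, 7.24 and 7.34 in KO replicates 1 to 4, against 6.96, 8.12, 8.46 and 7.44 in WT replicates 1 to 4, a log2 fold change of -0.56 (SE 0.37). The differences were -0.09 for Sqstm1, the autophagy receptor p62 that sequesters KEAP1, -0.22 for Nfe2l1, a related factor, and 0.32 for Btrc, a subunit of an E3 ligase for NRF2.

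The lists that use or supply glutathione gave 1 gene with an unadjusted p under 0.05. This was Mgst2, a microsomal glutathione transferase, with a log2 fold change of -0.81 (SE 0.30) and a limma adjusted p of 0.83. It stood at 5.33, 4.56, 4.89 and 4.56 in KO replicates 1 to 4, against 5.83, 6.32, 5.32 and 5.10 in WT replicates 1 to 4. It was detected on 2 of 4 KO and 4 of 4 WT arrays, so its KO level is near background. The transferases Gstk1 and Gstm4 differed by -0.55 (SE 0.25) and -0.39 (SE 0.19), and the list of 21 peroxidases, transferases and glutaredoxins had a median of 0.16. Of 8 tested genes of glutathione synthesis and transport, 0 had an unadjusted p under 0.05, and their median was 0.09. Slc3a2, the heavy chain that carries xCT to the membrane, had a log2 fold change of -0.93 (SE 0.44). Its lowest cultures were again KO replicates 3 and 4, at 6.57 and 6.11, and the other cultures lay between 7.39 and 8.54. Ggt7, of the gamma-glutamyltransferase family, differed by 0.51 and Gss, glutathione synthetase, by 0.29.

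Of 12 tested thioredoxin and peroxiredoxin genes, 0 had an unadjusted p under 0.05, and the median was -0.10. On the brightest probe of each gene, Prdx3, the mitochondrial peroxiredoxin, was the 1 gene of these lists whose groups did not overlap. It stood at 10.63, 10.75, 10.65 and 10.71 in KO replicates 1 to 4, against 10.44, 10.63, 10.50 and 10.32 in WT replicates 1 to 4. The log2 fold change was 0.22 (SE 0.13), with a limma adjusted p of 0.83 and an exact permutation p of 0.0286, the smallest possible. Every gene whose groups do not overlap has this permutation p, so it only restates the non-overlap, which 3.28% of all genes had. Txn1 differed by -0.90 (SE 0.44) and Txn2, the mitochondrial thioredoxin, by 0.33 (SE 0.19).

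In heme and iron handling, in NADPH supply, among detoxification targets and among genes that make or remove superoxide and peroxide, 0 of 10, 0 of 7, 0 of 12 and 0 of 8 tested genes had an unadjusted p under 0.05. The medians were -0.11, -0.07, -0.06 and -0.12. Blvra, the biliverdin reductase that acts after heme oxygenase, had a log2 fold change of -0.33 (SE 0.16). Slc48a1, a heme transporter, differed by -0.30, and Tfrc, the transferrin receptor, by 0.46. Of the NADPH genes, Idh2 differed by -0.47, Taldo1 by 0.12 and Pgls by -0.09. Aldh3a1, an aldehyde dehydrogenase, differed by 0.84 (SE 0.64), Abcc3, an exporter of conjugates, by -0.56, and Esd, an esterase, by -0.51. Sod3, the extracellular superoxide dismutase of the vessel wall, stood at 9.24, 7.89, 10.15 and 9.48 in KO replicates 1 to 4, against 9.25, 7.16, 7.35 and 8.15 in WT replicates 1 to 4, a log2 fold change of 1.21 (SE 0.57) and a limma adjusted p of 0.83. The NADPH oxidase genes Nox4 and Noxo1 differed by -0.23 and -0.35.

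Slc7a11 and Slc3a2 are also targets of ATF4, the factor of the amino acid response. Of 13 tested genes of that response, 0 had an unadjusted p under 0.05, and their median was -0.15. Atf4 itself differed by -0.37 (SE 0.27), and Phgdh, the first enzyme of serine synthesis, by 0.51 (SE 0.31). KO replicate 1 and WT replicate 1 were the 2 brightest cultures for 0 of these 13 genes, against 5.26% of all genes tested. At that share a count of 0 in so short a list does not set it apart.

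**Figure D5:**
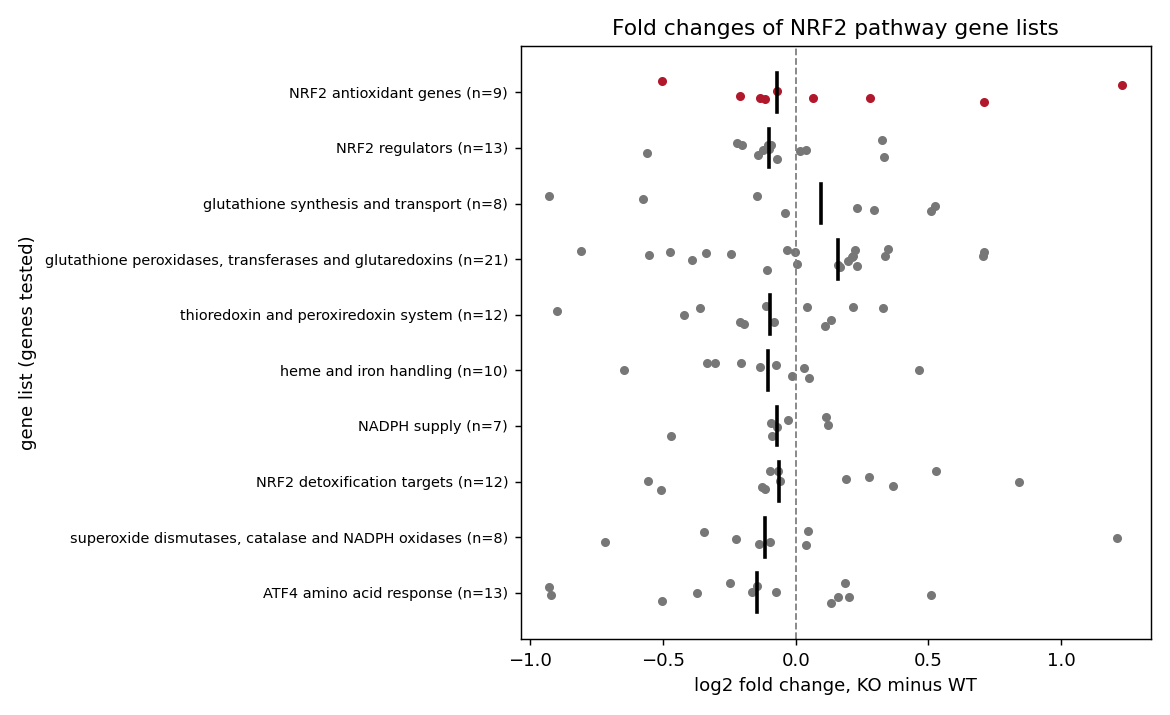
Log2 fold change (KO minus WT, x axis) of each tested gene, 1 point per gene, in the NRF2 antioxidant genes (red, top) and 9 lists of pathway genes (grey), with the median of each list as a black bar. The medians lie between -0.15 and 0.16, and no gene passed an adjusted p of 0.05.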

How the data were processed

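Total RNA was measured on Illumina bead arrays, 1 array for each of 4 KO and 4 WT cultures. Per the file headers, the deposited scanner table gives the mean intensity over the beads of a probe, the SD between beads, how many beads were averaged (a bead count) and a p-value for detection, not normalized between arrays. A second deposited table holds intensities that the authors normalized between arrays on a linear scale, by a method on which these sources are silent. In the scanner table the probe identifiers do not go with the values, so its rows were matched to the second table by their ranks on the 8 arrays, and all 46237 found a single partner. Gene names came from the platform annotation, with older symbols replaced from RefSeq's genes (GRCm38.p6). No coordinates are given.

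Intensities were corrected, given an offset of 16, quantile normalized and put on the log2 scale by the neqc function (limma 3.58.1, R 4.3.3). The background was fitted from the deposited detection p-values, which makes dim probes uncertain. Each gene was represented by its brightest kept probe. KO was compared with WT with lmFit and eBayes, two-sided, with Benjamini-Hochberg adjustment over all 11859 genes and a threshold of 0.05. The fit was tested on simulated data. The genes and lists were chosen with earlier results of these data known. Of each list the 3 genes with the smallest p were named, with Keap1, Bach1 and Sqstm1 always. Alternatives were other background corrections and normalizations, the authors' normalized intensities, other filters and probe rules, array weights, slide or replicate number as a block, and each culture left out.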

Additional observations from a re-analysis of the deposited data

Results flagged for a closer look

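Among the NRF2 antioxidant genes, WT replicate 1 stood apart from the other WT cultures for Gclm, at 11.16, and for Srxn1, at 10.34. The gap to the nearest WT culture took over 0.829 of the range of the 4 cultures, the 95% critical value of Dixon's test. Over the 50 named genes, 8 of 100 groups of 4 cultures had such a culture, and chance gives about 1 in 20. The other 6 were WT cultures of genes outside the set. WT replicate 2 was low for Txn2, at 8.47, and for Myh11, a smooth muscle myosin, at 5.23. It was high for the fibroblast markers Pdgfra and Dcn, at 11.03 and 14.17. WT replicate 1 was low for the endothelial marker Flt1, at 7.29, and WT replicate 3 was low for Abcc3, at 4.35.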

How the results depend on the processing

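0 genes passed an adjusted p of 0.05 in each of the 21 alternatives. Slide as a block and slide 1 alone gave the same estimates and turned the sign of Gclc (0.37), Gclm (0.26), Slc7a11 (0.032), Txnrd1 (0.44) and Nfe2l2 (-0.043), and of Abcc3 (0.086), Adgre1 (0.12), Cd52 (0.17) and Btrc (-0.0077). Gclc was 0.00027 with control-like probes as background, Hmox1 0.0096 with array weights and Pgls 0.26 as a mean over probes. Leaving out 1 culture gave -0.25 to 0.16 for Gclc, -0.43 to 0.19 for Gclm, -0.48 to 0.047 for Hmox1, -0.36 to 0.0062 for Slc7a11, -0.032 to 0.18 for Nfe2l2, -0.21 to 0.0044 for Sqstm1 and -0.015 to 0.26 for Taldo1. It left 0 to 1 members with an unadjusted p under 0.05, against 0 with all cultures, namely Nqo1 without WT replicate 1 (2.05, limma adjusted p 0.61) and Gsta4 without KO replicate 2 (1.12, limma adjusted p 0.58), and 464 to 996 such genes in all. With KO replicate 1 and WT replicate 1 both left out, chosen after seeing the data, 1 member had one, Nqo1 at 1.44 (limma adjusted p 0.66). Without the filter on dim probes there were 1117 such genes, among more genes tested. The labels give both groups replicate numbers 1 to 4 but not what they share. Deviations of same-numbered cultures correlated at 0.32, 0.21, 0.29 and 0.06, and 8 of 8 cultures correlated best with their own number, a hint from the data and not from the design. With the replicate block, 1005 genes (8.47%) and 2 members had an unadjusted p under 0.05, Nqo1 (limma adjusted p 0.54) and Gsta4 (0.54). The range of Nqo1 over the cultures was 3.11 to 4.99 log2 units over the 6 background and normalization settings, that of Txnrd1 was 0.52 to 2.70 and that of Gsta4 was 0.28 to 2.58. The causes were not tested.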

Other observations

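Several pathway genes outside the set had the same bright cultures. These genes were picked out after their values were seen. KO replicate 1 and WT replicate 1 were the 2 brightest cultures for 14 of the 102 further pathway genes, against 5.26% of all genes tested. Gsta3, a glutathione transferase, stood at 10.36, 7.93, 8.01 and 7.42 in KO replicates 1 to 4, against 10.32, 6.60, 7.30 and 6.65 in WT replicates 1 to 4. A dimmer Gsta3 probe ran the other way, at 4.66, 4.26, 4.96 and 4.70 in KO replicates 1 to 4, against 5.84, 5.47, 5.86 and 5.65 in WT replicates 1 to 4. The groups did not overlap on this dimmer probe, as for 3.28% of all genes tested on their brightest probe. Its log2 fold change was -1.06 (SE 0.17, from a separate fit over all probes without the filter). It was detected on 3 of 4 KO and 4 of 4 WT arrays, so its KO level is near background. Whether either probe also binds transcripts of the closely related Gsta genes was not tested. The small MAF genes Maff and Mafk, whose proteins pair with NRF2, had this order too, and Maff stood at 9.61, 7.88, 7.99 and 8.36 in KO replicates 1 to 4, against 9.36, 7.20, 7.49 and 8.46 in WT replicates 1 to 4. A dimmer Maff probe, detected on 4 of 4 KO and 2 of 4 WT arrays, did not have it, at 6.14, 5.45, 5.85 and 6.32 in KO replicates 1 to 4, against 6.23, 4.51, 4.23 and 5.17 in WT replicates 1 to 4. The others included the carbonyl reductases Cbr1 and Cbr3, the iron exporter Slc40a1, Sod1 and, on its brighter probe, Cat.

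Me1, the cytosolic malic enzyme that makes NADPH and a known NRF2 target, did not have that order, and its groups overlapped. Its 1 probe stood at 9.91, 4.27, 9.07 and 7.96 in KO replicates 1 to 4, against 4.47, 8.27, 9.20 and 8.80 in WT replicates 1 to 4. It was not detected in KO replicate 2 or in WT replicate 1, the culture that was among the brightest for Nqo1 and Gsta3, and was bright in the other 6 cultures.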
